A study of Mus musculus with 6 samples.

Results

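The interleukin-1 family and the inflammasome were represented by 10 genes, which were chosen by gene symbol: Il1a, Il1b, Il1rn, Il1r1, Il1r2, Il1rap, Il18, Il18bp, Nlrp3 and Casp1. All 10 had a row among the 38087 genes of the table, and all 10 were among the 18899 genes that were tested, which needed a value above 0 in at least 3 libraries. Il1r2 was above 0 in 5 libraries and the other 9 genes in all 6. The symbols were picked with earlier results of these libraries known.

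The libraries came from bone marrow-derived macrophages of male C57BL/6J mice, whose age is given as 8 to 10 weeks in the protocol and as 2 to 4 months in the sample labels. Marrow cells of both groups were cultured for 7 days in medium with 10 ng/ml of M-CSF, the growth factor that drives macrophage differentiation, and were then kept for 24 h without it. The first group, RvD1 6 h, received 10 nM resolvin D1 (RvD1) for 6 h, a lipid mediator made from an omega-3 fatty acid that signals through ALX/FPR2. The second group was untreated, and no vehicle is described for it. Each group had 3 libraries of poly-A RNA, with depths estimated at 11.1 to 16.3 M reads with RvD1 and 9.05 to 14.3 M reads in untreated cells. Nothing in the labels ties the replicates to different mice or cultures. The p-values below therefore refer to variation among these libraries, which may be technical. After replating, no agent other than RvD1 is named for either group.

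Interleukin-1 alpha and interleukin-1 beta are cytokines that bind the same receptor on the cell surface and turn on NF-kB signalling, and a soluble antagonist competes with them for that receptor. Interleukin-1 beta and interleukin-18 are made as inactive precursors. They are cut by caspase-1, a protease that is itself activated on the inflammasome, a protein assembly built around sensors such as NLRP3. In macrophages the transcripts of Il1b and Nlrp3 are known to be low at rest and to be induced by microbial products, a step called priming, whereas release of the cytokines depends on cleavage. RNA levels bear on the first step and not on the second.

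Promoter windows of all 10 genes were found in RefSeq tables for GRCm38.p6, in 14 windows that run from 250 bases before an annotated start to 50 bases after it. The first window of Il1a, Il1b, Il1rn and Nlrp3 is shown because these genes had the 4 smallest p-values of the 10. Capitals mark matches to the AP-1 motif TGANTCA or to the kappaB motif, the binding site of NF-kB.
Il1a, chr2:129309923-129310222, minus strand: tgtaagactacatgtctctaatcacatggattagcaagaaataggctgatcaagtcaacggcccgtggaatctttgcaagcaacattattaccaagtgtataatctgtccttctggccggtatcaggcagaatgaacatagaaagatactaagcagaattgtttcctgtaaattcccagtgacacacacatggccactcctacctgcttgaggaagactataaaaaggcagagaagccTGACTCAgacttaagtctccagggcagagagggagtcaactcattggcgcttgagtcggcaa
Il1b, chr2:129371090-129371389, minus strand: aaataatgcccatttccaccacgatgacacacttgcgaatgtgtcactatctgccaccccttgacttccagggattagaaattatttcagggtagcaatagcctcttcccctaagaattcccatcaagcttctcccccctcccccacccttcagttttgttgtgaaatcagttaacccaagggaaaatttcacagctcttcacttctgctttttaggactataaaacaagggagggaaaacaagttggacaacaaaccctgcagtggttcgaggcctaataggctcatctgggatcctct
Il1rn, chr2:24336610-24336909, plus strand: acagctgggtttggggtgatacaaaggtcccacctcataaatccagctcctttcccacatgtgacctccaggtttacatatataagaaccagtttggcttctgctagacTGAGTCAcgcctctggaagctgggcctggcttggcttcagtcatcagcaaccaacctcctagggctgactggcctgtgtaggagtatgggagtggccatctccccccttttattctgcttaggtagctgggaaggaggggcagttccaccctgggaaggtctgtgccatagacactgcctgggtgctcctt
Nlrp3, chr11:59541319-59541618, plus strand: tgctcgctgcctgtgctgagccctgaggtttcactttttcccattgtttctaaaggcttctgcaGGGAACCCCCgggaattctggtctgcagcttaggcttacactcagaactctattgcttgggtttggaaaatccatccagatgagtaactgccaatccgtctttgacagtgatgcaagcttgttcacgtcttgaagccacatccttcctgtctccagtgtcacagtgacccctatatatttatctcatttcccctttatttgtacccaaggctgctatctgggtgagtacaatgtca

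Both strands were searched. The Il1a window held an AP-1 match that began 12 bases before the annotated start, and the first Il1rn window held one 141 bases before it. Windows 2 and 3 of Il1rn held no AP-1 match. An AP-1 match was present in 7.81% of all 32817 promoter windows of this length. The first Nlrp3 window held a kappaB match 186 bases before the start, and window 2 of Nlrp3 held none. Such a match was present in 4.50% of all windows. A further kappaB match lay in a second window of Il1r1. The Il1b window held neither motif and so has no capitals. It also held no match to the C/EBP motif TTGCNNAA, found in 10.8% of all windows, or to ACGTG, a core of hypoxia response elements that overlaps the E-box, found in 19.6%. In the 14 windows, the AP-1 and kappaB motifs occurred in 2 each, ACGTG in 5 and TTGCNNAA in 2. These matches describe letters in the windows.

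With RvD1, the largest difference among the 10 genes was that of Il1b, at 2.80 times the untreated level. Il1r2, at 1.50 times the untreated level, came next in size but rested on few reads. Beside Il1b, an unadjusted p under 0.05 was found for Il1a at 1.43 times, the antagonist Il1rn at 1.31 times and Nlrp3 at 1.19 times the untreated level. None of the 10 passed the test over all genes (limma, Benjamini-Hochberg adjusted p between 0.116 for Il1rn and 0.818 for Il1r1), where 1.12% of all tested genes did. In the higher direction alone 0.561% of all tested genes passed. Before adjustment, limma's p was under 0.05 for 4 of the 10, which were all higher, where it was under 0.05 for 19.9% of all tested genes, 10.3% in the higher and 9.65% in the lower direction. All 10 log2 fold changes were positive, as were 50.8% of those of all tested genes, and their median was 0.20 against 0.00441 for all tested genes. The 3 RvD1 values lay above the 3 untreated values for Il1a, Il1rn, Il1rap and Nlrp3, which makes 4 of 10, where 12.6% of all tested genes had RvD1 values wholly above and 12.8% wholly below. All these values come from a fit of treatment alone. With a term for the replicate number added, Il1rn was the only one of the 10 to pass (limma adjusted p = 0.0313), where 10% of all tested genes did.

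A correction of the values of all tested genes for transcript length and GC content left 7 of the 10 positive. Il1r1, Il1rap and Casp1 then had log2 fold changes of -0.09, -0.03 and -0.0047. Il1b was then at 1.46, Il1a at 0.41, Il1rn at 0.27 and Nlrp3 at 0.25. Limma's unadjusted p stayed under 0.05 for 2 of the 10, Il1b and Nlrp3, beside 2286 of 18549 genes tested there. It was 0.0626 for Il1a and 0.0763 for Il1rn. On the values as deposited, the number of the 10 with such a p depended on single libraries. It was 2 without RvD1 replicate 1 or 3 and without untreated replicate 1 or 2. It was 4 without RvD1 replicate 2 and without untreated replicate 3. Over all 18899 tested genes, 2623 to 4123 had such a p in these fits. In bulk RNA, more cells of a type and more RNA per cell cannot be told apart.

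**Figure D1:**
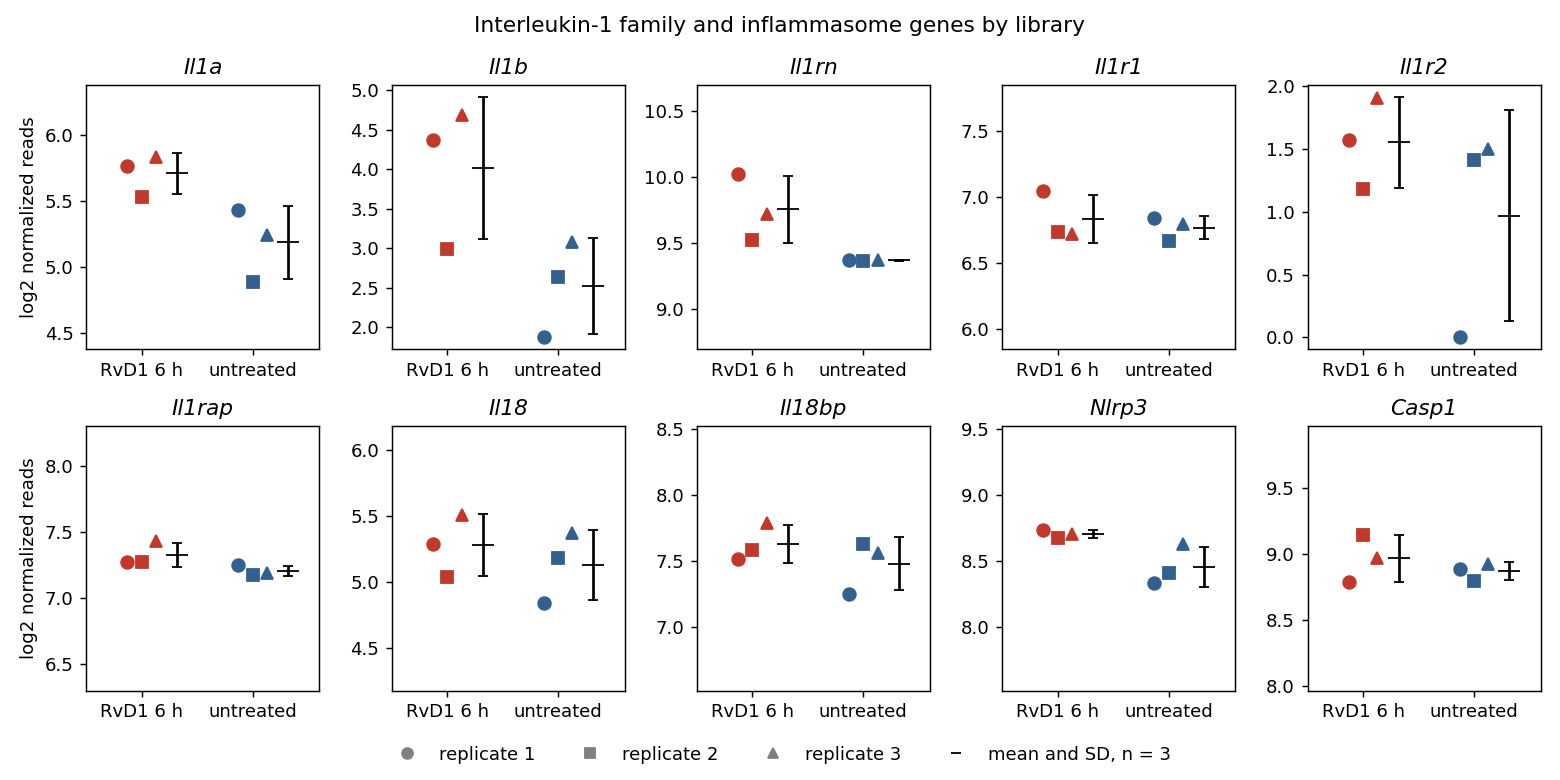
Log2 normalized reads of the 10 genes in each library, with RvD1 6 h in red on the left of each panel and untreated in blue on the right. Symbols mark the replicate number, bars show the mean and SD of 3 libraries, and each panel spans at least 2 log2 units. Il1a, Il1rn, Il1rap and Nlrp3 are the panels in which the groups do not overlap.

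Il1b encodes interleukin-1 beta and lies on chromosome 2 (129364570 to 129371139, minus strand, mm10). Its level was 4.37, 2.99 and 4.68 in RvD1 replicates 1, 2 and 3, against 1.87, 2.63 and 3.07 in untreated replicates 1, 2 and 3 (log2 normalized reads). RvD1 replicates 1 and 3 were above every untreated library, while RvD1 replicate 2 lay below untreated replicate 3, so the groups overlapped. The log2 fold change was 1.49 (SE 0.49, 95% interval 0.37 to 2.61; limma adjusted p = 0.149).

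These values rested on few reads. From the step between low values in each library, Il1b was estimated to have 27, 7 and 26 reads in RvD1 replicates 1, 2 and 3, against 3, 7 and 6 reads in untreated replicates 1, 2 and 3. Counting alone would give a log2 SD of 0.277 at the highest of these read numbers and 0.833 at the lowest. Il1b was thus detected in every library, and its untreated SD of 0.61 (n = 3) lay inside the 0.545 to 0.833 that counting alone would give there. Its RvD1 SD of 0.90 (n = 3) lay above the 0.277 to 0.545 that counting alone would give in the RvD1 libraries. Without RvD1 replicate 2 its log2 fold change was 2.00, and without RvD1 replicate 3 it was 1.15. With 8 normalized reads added before taking logs it was 0.83.

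Il1a, the partner ligand, which is active without cleavage, lies next to Il1b on chromosome 2 (129299610 to 129309972, minus strand). It stood at 5.76, 5.53 and 5.83 in RvD1 replicates, against 5.44, 4.89 and 5.24 in untreated replicates (log2 normalized reads). All 3 RvD1 values were above all 3 untreated ones, by a gap that was smaller than the spread within either group. The mean was 5.71 ± 0.16 with RvD1 and 5.19 ± 0.28 in untreated cells (SD, n = 3 each). The log2 fold change was 0.52 (SE 0.19, 95% interval 0.09 to 0.95; limma adjusted p = 0.181). The annotated transcript Gm14023 overlaps Il1a on the opposite strand. It was listed between 1.96 and 3.02 in RvD1 libraries and between 1.62 and 2.44 in untreated libraries. No counting by strand is described, so reads of this pair cannot be told apart. The transcript antisense to Il1b, Il1bos, was listed at 0 in all 6 libraries.

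Il1rn encodes the interleukin-1 receptor antagonist (chromosome 2, 24336853 to 24351494, plus strand). It was among the more strongly expressed of the 10, with 10.02, 9.53 and 9.72 in RvD1 replicates, against 9.37, 9.37 and 9.37 in untreated replicates (log2 normalized reads). Every RvD1 library was above the untreated ones, and RvD1 replicate 1 was the highest. The untreated values lay closer together (SD 0.0038, n = 3) than counting alone would give, which is a log2 SD between 0.053 and 0.067 at their estimated 470 to 746 reads. The test did not rest on that narrow spread alone, because limma moderates each gene's variance towards that of genes at the same level. The log2 fold change was 0.38 (SE 0.11, 95% interval 0.13 to 0.64; limma adjusted p = 0.116), and without RvD1 replicate 1 it was 0.25.

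Levels of different genes were compared per kb of the longest annotated transcript. The antagonist exceeded Il1b by 4.74, 5.62 and 4.12 log2 units in RvD1 replicates, against 6.59, 5.82 and 5.39 in untreated replicates. The mean difference was 4.83 ± 0.75 with RvD1 and 5.93 ± 0.61 in untreated cells (SD, n = 3 each), and the ranges overlapped. The antagonist exceeded Il1a by 3.68 ± 0.19 log2 units with RvD1 and by 3.81 ± 0.27 in untreated cells. In every library the antagonist transcript was therefore the most abundant of the 3. Il1a exceeded Il1b by 1.15 ± 0.74 log2 units with RvD1 and by 2.12 ± 0.78 in untreated cells.

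**Figure D2:**
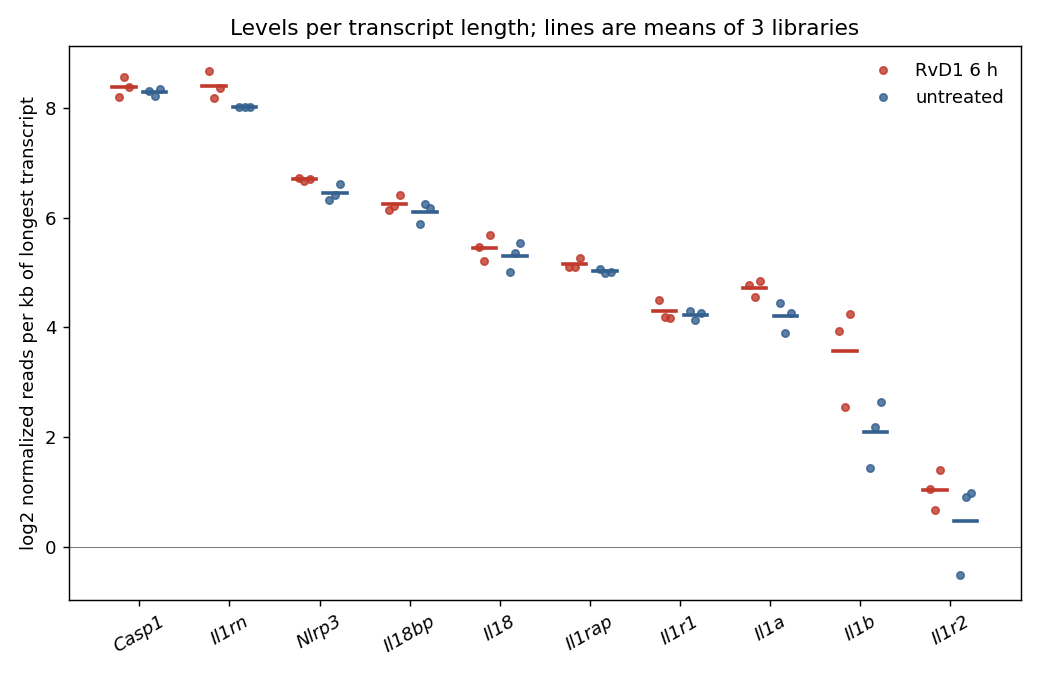
Log2 normalized reads per kb of longest transcript for the 10 genes, ordered by the untreated mean, with RvD1 6 h in red left of untreated in blue. Points are libraries and lines are means of 3. Casp1 and Il1rn stand highest, with group means of 8.02 to 8.40, and Il1r2 lowest, and the lowest Il1r2 point is a listed value of 0.

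Of the receptor genes, Il1r1, the signalling receptor (chromosome 1, 40225080 to 40317257, plus strand), was listed at 7.05, 6.74 and 6.72 in RvD1 replicates, against 6.84, 6.67 and 6.80 in untreated replicates (log2 normalized reads). The groups overlapped, and RvD1 replicate 1 was the highest library. Its log2 fold change was 0.07, and the 95% interval of -0.22 to 0.35 corresponds to 0.858 to 1.28 times the untreated level (limma adjusted p = 0.818). Its sign was not stable, at -0.04 without RvD1 replicate 1.

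Il1rap, the accessory chain that the signalling receptor needs, was listed at 7.27, 7.27 and 7.43 in RvD1 replicates, against 7.25, 7.18 and 7.19 in untreated replicates. The groups did not overlap, but the gap between the nearest libraries was small. This is a log2 fold change of 0.12 (SE 0.09, 95% interval -0.09 to 0.33; limma adjusted p = 0.520). Gm20319, an antisense transcript across part of Il1rap, was listed at 2.53 to 2.88 in RvD1 libraries and at 1.96 to 2.56 in untreated libraries.

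Il1r2 encodes the decoy receptor, which binds the ligands without signalling. It was barely detected, at 1.57, 1.18 and 1.90 in RvD1 replicates, against 0, 1.41 and 1.50 in untreated replicates. These stand for an estimated 4, 2 and 4 reads with RvD1 and at most 3 reads in an untreated library. The log2 fold change of 0.58 had an interval of -0.58 to 1.74 (limma adjusted p = 0.572), so a difference was not detectable at this depth. Without untreated replicate 1, the library listed at 0, the value was 0.10, and with 8 normalized reads added before taking logs it was 0.17.

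Interleukin-18 and its soluble inhibitor were measured in all libraries. Il18 was listed at 5.28, 5.04 and 5.51 in RvD1 replicates, against 4.84, 5.18 and 5.37 in untreated replicates (log2 normalized reads). The groups overlapped, with a log2 fold change of 0.15 (95% interval -0.32 to 0.62; limma adjusted p = 0.742). Without untreated replicate 1 the value was 0.0054. Il18bp, which encodes the interleukin-18 binding protein, was listed at 7.52, 7.59 and 7.79 in RvD1 replicates, against 7.25, 7.63 and 7.56 in untreated replicates. These groups overlapped too, and the log2 fold change was 0.15 (95% interval -0.13 to 0.43; limma adjusted p = 0.545). Without untreated replicate 1 it was 0.04, and without RvD1 replicate 3 it was 0.07. Per kb of transcript, Il18bp exceeded Il18 by 0.80 ± 0.17 log2 units with RvD1 and by 0.80 ± 0.14 in untreated cells (SD, n = 3 each). Il18bp shares 80 bases with Numa1 on the opposite strand, a gene listed at 11.65 to 11.82 in RvD1 libraries and at 11.58 to 11.77 in untreated libraries. Il18 shares 355 bases with Bco2, which was listed at 4.31 to 4.92 with RvD1 and at 3.29 to 4.82 in untreated cells.

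Nlrp3 encodes the inflammasome sensor (chromosome 11, 59541568 to 59566956, plus strand). It was listed at 8.74, 8.68 and 8.71 in RvD1 replicates, against 8.34, 8.41 and 8.63 in untreated replicates (log2 normalized reads). The RvD1 libraries were tightly grouped and all above the untreated ones, of which replicate 3 was the nearest. The mean was 8.71 ± 0.03 with RvD1 and 8.46 ± 0.15 in untreated cells (SD, n = 3 each). Its log2 fold change was 0.25 (SE 0.09, 95% interval 0.05 to 0.44; limma adjusted p = 0.162), and it was also 0.25 after the correction for transcript length and GC content.

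Casp1 encodes caspase-1, the protease that cuts the precursors of interleukin-1 beta and interleukin-18. It was listed at 8.79, 9.14 and 8.97 in RvD1 replicates, against 8.89, 8.80 and 8.92 in untreated replicates. The groups overlapped, and the lowest of the 6 libraries was RvD1 replicate 1. The log2 fold change was 0.10, and its interval of -0.12 to 0.31 corresponds to 0.922 to 1.24 times the untreated level (limma adjusted p = 0.615). It was 0.0081 without RvD1 replicate 2 and 0.19 without RvD1 replicate 1.

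Per kb of transcript, the order in RvD1 libraries was Il1rn, Casp1, Nlrp3, Il18bp, Il18, Il1rap, Il1a, Il1r1, Il1b and Il1r2. Ranges of neighbours overlapped for Il1rn and Casp1 (8.40 ± 0.25 and 8.38 ± 0.18), for Il18 and Il1rap, and for Il1r1 and Il1b. In untreated libraries Casp1 (8.29 ± 0.07) came before Il1rn (8.02 ± 0.0038), and Il1r1 came before Il1a (4.23 ± 0.09 and 4.21 ± 0.28). Ranges overlapped there for Il18 and Il1rap and for Il1r1 and Il1a. Il1b and Il1r2 were the lowest of the 10 in both groups, at 3.57 ± 0.90 and 1.05 ± 0.36 with RvD1 and at 2.09 ± 0.61 and 0.46 ± 0.84 in untreated cells (log2 normalized reads per kb, SD, n = 3).

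**Figure D3:**
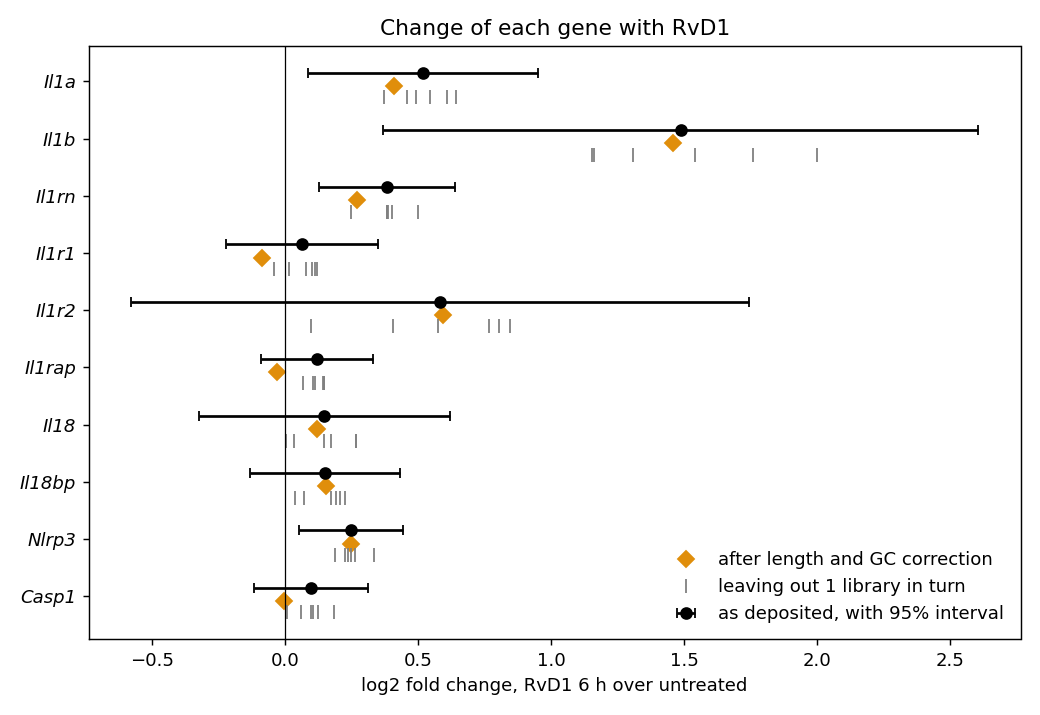
Log2 fold change of each gene, RvD1 6 h over untreated. Black points with bars are the values as deposited with 95% intervals, orange diamonds the values after the length and GC correction, and grey ticks the values with 1 library left out in turn. The intervals of Il1a, Il1b, Il1rn and Nlrp3 lie above 0 before adjustment over all genes, and Il1b has the widest of these 4, from 0.37 to 2.61.

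The 8 genes most like Il1b in pattern were sought by Pearson's r over the 6 libraries, among 1502 tested genes with a mean of at least 3 and a span of at least 1 log2 unit. They were Itih5 (r = 0.950), Ccdc88c (0.945), 9330132A10Rik (0.936), Gpr171 (0.922), AC158921.1 (0.918), Flrt3 (0.916), Nxpe4 (0.915) and Cd83 (0.913). These 6 points share their libraries and depth, and the values are a description. Cd83, a surface protein known as a marker of activated antigen-presenting cells, was listed at 8.06, 8.00 and 8.39 in RvD1 replicates, against 7.36, 7.46 and 7.83 in untreated replicates (log2 normalized reads). Its groups did not overlap, and its log2 fold change of 0.60 did not pass (limma adjusted p = 0.0805). The groups of Flrt3 (1.41, limma adjusted p = 0.0680) and AC158921.1 (0.83, limma adjusted p = 0.163) did not overlap either. Those of Itih5, Ccdc88c, 9330132A10Rik, Gpr171 and Nxpe4 overlapped, and none of the 8 passed. Genes picked for likeness to Il1b in these libraries tend to share its higher RvD1 values, so such differences follow in part from the choice.

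Other genes of the pathway were taken from 6 lists, with 78 genes in the table. Of the 69 that were tested, 1 rose, 0 fell and 68 did not pass, beside 1.12% of all tested genes passing in either direction. Before adjustment, limma's p was under 0.05 for 13 with positive and 6 with negative values, beside 10.3% and 9.65% of all tested genes. Their median log2 fold change was 0.08, against 0.00441 for all tested genes.

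The gene that rose was Hif1a, in the list of regulators of transcription at the interleukin-1 locus. It encodes the oxygen-regulated subunit of hypoxia-inducible factor, which is known to bind the Il1b promoter in activated macrophages. It was listed at 11.53, 11.58 and 11.50 in RvD1 replicates, against 11.26, 11.17 and 11.19 in untreated replicates, which is 1.26 times the untreated level (log2 fold change 0.33, SE 0.05; limma adjusted p = 0.0372). Corrected for length and GC content, the value was 0.16 and did not pass (limma adjusted p = 0.201). It did not pass without untreated replicate 1, 2 or 3 or without RvD1 replicate 2 or 3 (limma adjusted p between 0.0931 and 0.157), and it passed without RvD1 replicate 1 (limma adjusted p = 0.0412). Hif1a also did not pass with no filter on low values (limma adjusted p = 0.0553) or no variance trend (0.187). In the remaining alternatives, among them the replicate block with or without the correction, it passed (limma adjusted p between 0.00674 and 0.0467).

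The other 14 genes of that list did not pass, and 9 of the 15 had negative values, with a median of -0.07. Cebpb and Spi1, which encode C/EBP beta and PU.1 and are known activators of Il1b transcription, are named here after their values were seen. Cebpb was listed at 9.56, 9.16 and 10.00 in RvD1 replicates, against 9.88, 10.28 and 10.27 in untreated replicates, a log2 fold change of -0.57 (limma adjusted p = 0.159). Spi1, listed under its older symbol Sfpi1, had a log2 fold change of -0.24 (limma adjusted p = 0.196). Corrected for length and GC content, the values were -0.31 for Cebpb and -0.07 for Spi1. Neither gene passed.

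None of 15 genes of receptor signalling passed in limma. Before adjustment, p was under 0.05 for 2 of them, both with positive values, beside 10.3% of all tested genes with positive and 9.65% with negative values, and the list median was 0.08. Those 2 with the smallest p were Peli2, a ubiquitin ligase of the pathway, and Irak3, a kinase-like inhibitor of it. Irak3 was listed at 7.49, 7.62 and 7.98 in RvD1 replicates, against 7.28, 7.35 and 7.40 in untreated replicates, a log2 fold change of 0.36 (limma adjusted p = 0.179). Peli2 had a log2 fold change of 0.20 (limma adjusted p = 0.128). For the adaptor Myd88 and the kinases Irak1, Irak2 and Irak4 the log2 fold changes were 0.02, 0.09, 0.02 and -0.07.

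Of the other receptors of the family, 5 of 7 were tested and 0 passed in limma. Beside 19.9% of all tested genes, 1 of the 5 had an unadjusted p under 0.05. This was Il1rl1, which encodes the interleukin-33 receptor ST2. It was listed at 9.05, 9.26 and 9.19 in RvD1 replicates, against 8.89, 8.84 and 8.94 in untreated replicates, so the groups did not overlap, and its log2 fold change was 0.28 (limma adjusted p = 0.0942). Length and GC correction took it to 0.13 (limma adjusted p = 0.455). Sigirr, which encodes a receptor that restrains signalling by the family, had a log2 fold change of 0.52 (limma adjusted p = 0.260). The ligands were mostly undetected: 4 of the 6 in the table were listed at 0 in every library, and Il33 was above 0 in too few libraries to be tested. Il1f9, the older symbol for interleukin-36 gamma, was the 1 tested ligand, with a log2 fold change of 0.12 (limma adjusted p = 0.932) that ran from -0.50 to 0.62 when 1 library was left out in turn.

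Of 25 other inflammasome sensors and adaptors, 23 were tested and 0 passed in limma. Before adjustment, p was under 0.05 for 7 with positive and 1 with a negative value, beside the same 10.3% and 9.65% of all tested genes, and the list median was 0.22. Of the 23, 1 is listed as Gbp5 but has an identifier that GENCODE M21 names Gbp2b, another guanylate-binding protein. The smallest p-values were those of Casp4, the sensor of intracellular endotoxin (log2 fold change 0.37; limma adjusted p = 0.159), and Txnip, a thioredoxin-binding protein linked to NLRP3 (0.26; limma adjusted p = 0.173). Casp4 was listed at 6.44, 6.68 and 6.77 in RvD1 replicates, against 6.31, 6.23 and 6.22 in untreated replicates, and these groups did not overlap. The adaptor Pycard, which links NLRP3 to caspase-1, had a log2 fold change of -0.08, and Nek7, a kinase that NLRP3 needs, one of 0.18. Of 10 pore formers, other proteases and protease inhibitors, 0 passed in limma. Only Ninj1 had an unadjusted p under 0.05, beside 19.9% of all tested genes. The pore-forming Gsdmd had a log2 fold change of 0.10 and the membrane rupture gene Ninj1 one of -0.29 (limma adjusted p = 0.203). Gsdme, listed under its older symbol Dfna5, had one of 0.20. Corrected for length and GC content, these were -0.09 for Ninj1 and 0.0049 for Gsdme.

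**Figure D4:**
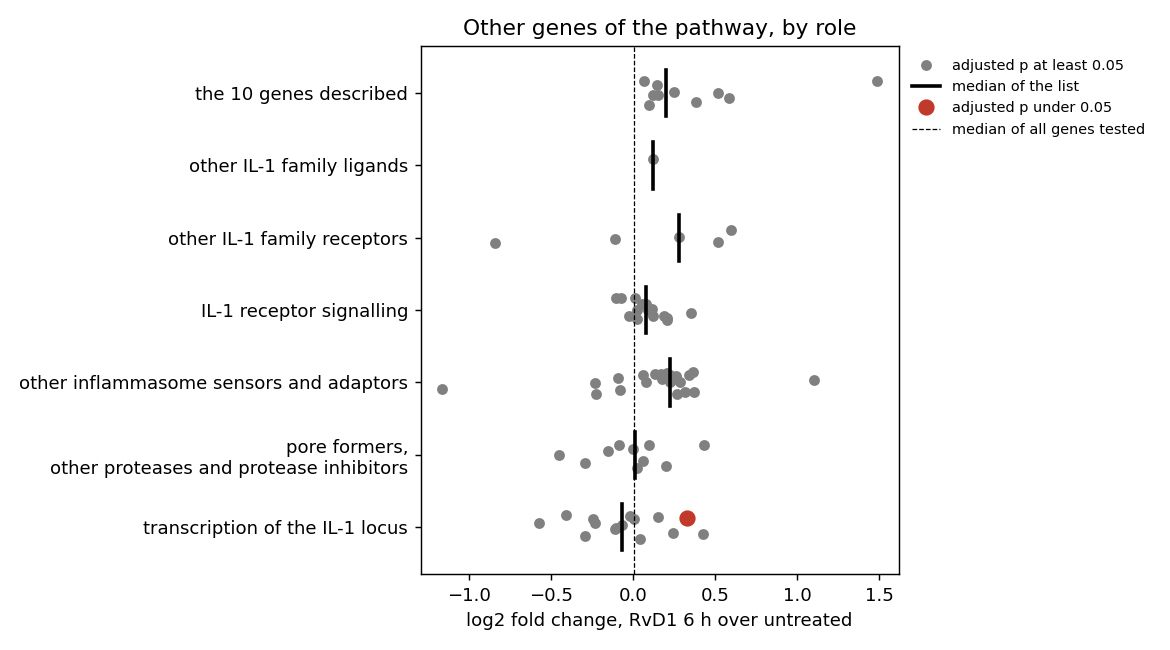
Log2 fold change, RvD1 6 h over untreated, of each tested gene in the 6 lists and of the 10 genes described. Grey points did not pass the limma test, the red point is Hif1a, thick lines are list medians and the dashed line is the median of all genes tested. Medians lie between -0.07 for regulators of transcription and 0.28 for the other receptors.

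Marker genes bear on which cells could hold these transcripts. Macrophage markers were high in both groups: 9 of 9 were tested, and their summed level ran from 16.69 to 17.04 with RvD1 and from 16.63 to 17.00 in untreated cells (log2 of summed normalized reads). Neutrophils and monocytes are further known sources of interleukin-1 beta. The 11 neutrophil markers summed to 12.47, 12.96 and 13.85 in RvD1 replicates 1, 2 and 3, against 12.12, 12.76 and 13.88 in untreated replicates 1, 2 and 3. None was listed at 0 in every library, and 0 passed in limma. An unadjusted p under 0.05 was found for 1 of the 11, beside 19.9% of all tested genes. The 6 monocyte markers summed to 11.19 to 12.10 with RvD1 and to 10.99 to 11.89 in untreated cells. RvD1 replicate 2, in which Il1b was lowest among the treated libraries, did not have the lowest neutrophil or monocyte sum of its group. The order of 3 libraries does not show which cells held Il1b, and this was not tested.

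The 6 mast cell and basophil markers summed to 7.36, 6.50 and 7.38 in RvD1 replicates, against 6.70, 6.18 and 6.83 in untreated replicates. The 6 stromal markers summed to 15.03, 14.26 and 14.51 in RvD1 replicates, against 14.70, 14.47 and 14.59 in untreated replicates. Col1a1 and Col3a1 carried most of this sum, at 13.83 to 14.39 and at 12.11 to 13.37 over the 6 libraries. In the same list Dcn was listed at 4.53 to 5.72 and Lum at 0 to 1.93. RvD1 replicate 1 was the highest of the 6 libraries both in the stromal sum and in Il1r1. The 6 dendritic cell markers summed to 6.09 to 6.27 with RvD1 and to 5.89 to 6.24 in untreated cells. Zbtb46 was the highest of these markers in every library, at 5.27 to 6.03. RvD1 replicate 2 was the lowest of its group in the mast cell, stromal and dendritic cell sums, as it was for Il1b. No gene of these 6 marker lists passed in limma, beside 1.12% of all tested genes. An unadjusted p under 0.05 was found for 2 of them, beside 19.9% of all tested genes. These were Cd14 of the macrophage list (log2 fold change 0.57) and Ly6g of the neutrophil list (1.94). The part of these other cells in the values of the 10 genes was not tested. The rank of a single library does not show it.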

How the data were processed

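Poly-A RNA was sequenced in 6 libraries, 3 per group, with groups and replicate numbers taken from the sample titles. The submitters' processing notes name TopHat2 2.0.7 and mm10, while for the read counter, annotation release and normalization method the sources used here name none. A single table of normalized values was deposited by the authors. Its values were read as log2 normalized reads: none lay below 0, the highest was 17.4, and 17042 of 38087 genes had 0 throughout, a floor that stands for 1 normalized read or less. Folds near that floor can understate the change, and they rest on few reads, so they can also overstate it. In each library the spacing of the antilogs of low values was taken as 1 read, which put the depth at 11.1 to 16.3 M reads in RvD1 and 9.05 to 14.3 M in untreated libraries. With that spacing, just 51.9% to 61.8% of low values came to whole reads (tolerance 0.1 reads). A count test was therefore not run.

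Genes above 0 in at least 3 libraries (18899) were compared on the deposited log2 scale by limma 3.58.1, run in R 4.3.3 (treatment alone, variance trend, two-sided, Benjamini-Hochberg adjusted p, threshold 0.05). The fit had 4 residual and 4.62 prior degrees of freedom. The alternatives were another scaling (quantile, median centring), filter, pseudocount or variance prior, a replicate term, a length and GC correction by splines with 4 degrees of freedom (GENCODE M21, 98.1% of tested genes annotated), and leaving out each library. Members and lists were chosen with earlier results of these data known. All 10 members were described, with genes past the test, or else the 2 smallest p-values, in each pathway list. A gene named outside that rule was chosen after its values were seen. Gene coordinates came from GENCODE M21 (mm10) and promoter windows from RefSeq (GRCm38.p6). Tables were read with pandas 2.3.3 and figures drawn with matplotlib 3.10.9. A list of lymphocyte markers is not reported here.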

Additional observations from a re-analysis of the deposited data

How the results depend on the processing

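Over 16 alternatives, 151 of 159 values of the 10 genes kept their direction and their side of the threshold, 7 changed direction and 1 newly passed. None of the 10 passed as reported, and several alternatives called few genes. Keeping the side of the threshold therefore meant only not passing again. This count does not measure how stable the sizes were, which is seen in the values below and above. Il1r2 has no value under the stricter filter (mean log2 of at least 3), which it did not meet. With the length and GC correction, with or without a replicate block, Il1r1 was -0.086, Il1rap -0.031 and Casp1 -0.0047. Leaving out 1 library gave Il1r1 values from -0.041 to 0.12 and Il1b values from 1.15 to 2.00. Same-numbered libraries were not taken as paired, because nothing in the labels ties them to each other. Their deviations from the group means correlated at 0.301, -0.0801 and 0.417 for numbers 1, 2 and 3. Between different numbers the correlations ran from -0.393 to 0.0879. The macrophage, neutrophil, monocyte, mast cell, stromal and dendritic cell marker sums each put the numbers in the same order in both groups. For neutrophils, numbers 1, 2 and 3 had 12.47, 12.96 and 13.85 with RvD1, against 12.12, 12.76 and 13.88 in untreated cells. These values do not settle whether the numbers mark pairs, so the replicate block is given as an alternative. With a replicate block Il1rn (0.38) passed (limma adjusted p = 0.0313, against 0.0989 to 0.467 over its other alternatives).

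The 211 genes past the test became 1896 with a replicate block, 36 with the length and GC correction, 769 with both, 12 with no filter on low values, 1 with no variance trend, and from 0 to 451 without 1 library (451 without RvD1 replicate 1, 0 without RvD1 replicate 2 or 3 or untreated replicate 3, where 2623, 3203 and 3045 genes had an unadjusted p under 0.05 in limma, and 5 and 3 without untreated replicate 1 and 2). Among the 79 tested genes of the 10 and the pathway lists, the count of 1 became 13 with a replicate block, beside 10% of all tested genes. It became 3 with both, beside 4.15%. It was 0 with the length and GC correction, no filter or no variance trend, beside 0.194%, 0.057% and 0.00529%. In those 3 settings, 7 of 79, 20 of 80 and 12 of 79 had an unadjusted p under 0.05 in limma. Over all genes there, 2286 of 18549, 3814 of 21045 and 3113 of 18899 did. Without 1 library the count ranged from 0 to 1. An unadjusted p under 0.05 in limma was then found for 11 to 25 of the 79, beside 2623 to 4123 of 18899 tested genes. Of the genes named, the block took Cebpb, Spi1, Il1rl1, Txnip and Ninj1 past the test (limma adjusted p = 0.0422, 0.0386, 0.0399, 0.0113 and 0.0255), and Nek7 too. The cause was not tested. Depth limits Il1b and Il1r2 most, at 3 to 27 and 0 to 4 estimated reads.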

Other observations

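The widest values in the pathway lists, chosen after they were seen, belonged to genes near the detection floor. A guanylate-binding protein given as Gbp5, whose identifier GENCODE M21 names Gbp2b, stood at 3.85, 4.09 and 4.51 in RvD1 replicates, against 1.29, 3.28 and 4.58 in untreated replicates (log2 fold change 1.10, 95% interval -0.50 to 2.70; limma adjusted p = 0.428). Nlrp12, a sensor of the NLRP family, was listed at 0.61, 0.18 and 2.90 in RvD1 replicates, against 1.24, 2.63 and 3.30 in untreated replicates (log2 fold change -1.16, 95% interval -2.94 to 0.61; limma adjusted p = 0.453). Both pairs of groups overlapped. The interleukin-18 receptor chains differed in sign, with log2 fold changes of -0.84 for Il18r1 and 0.60 for Il18rap (limma adjusted p = 0.558 and 0.340).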
